A study of Mus musculus with 88 samples.

Results

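Voltage-gated potassium (Kv) channel genes were followed in the nucleus accumbens, the ventral part of the striatum that takes part in reward. The members were all protein-coding mouse genes named Kcna, Kcnb, Kcnc, Kcnd, Kcnf, Kcng, Kcnh, Kcnq, Kcns or Kcnv followed by digits only. This gave 40 of the 55487 genes in the table of read counts. Of these, 37 passed the filter on low counts. Kcna7, Kcna10 and Kcnv2 did not pass and are described by level only.

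Total RNA was sequenced from whole dissected nucleus accumbens of female and male mice backcrossed to C57BL/6, collected 6 days after surgery. All mice had received a herpes simplex vector for a Cas9 that binds but does not cut DNA, joined to CREB(S133D), an always-active mutant of the transcription factor CREB. A further vector carried a guide RNA to Fosb (g11) or a non-targeted guide (gNT, called control here), so the control libraries carry the activator too. D1 and D2 are dopamine receptors that mark the main classes of medium spiny neurons, the chief cells of the accumbens. The design asks which genes change after Fosb is switched on in D1 neurons, D2 neurons or both.

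In the D1 arms the mice were D1-Cre and the vectors needed Cre, with 6 Fosb-guide and 8 control libraries in females and 7 and 4 in males. In the D2 arms the mice were D2-Cre with Cre-dependent vectors, with 8 and 8 libraries in females and 7 and 8 in males. In the D1-D2 arms D1-Cre mice received vectors that do not need Cre, with 12 and 8 libraries in females and 4 and 7 in males. The labels give no age and do not say whether a library was 1 animal, so p-values measure the spread between these libraries. The RNA came from the tissue as a whole, so cells with and without the vectors were measured together. In such bulk samples, fewer cells of a type and less RNA per cell cannot be told apart.

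Kv channels open when the membrane depolarises and let potassium leave the cell, which repolarises it and sets threshold, spike shape and firing rate. Each channel holds a set of pore-forming subunits. Subunits of the Kv1 to Kv4 families (Kcna to Kcnd) and Kv7 (Kcnq) form channels with their own relatives, while Kcnf, Kcng, Kcns and Kcnv encode silent subunits that alter Kv2 channels and do not conduct alone. In medium spiny neurons, Kv1 channels delay the first spike, Kv4 channels carry a fast A-type current and Kv7 channels carry the M-current. Kv3 channels (Kcnc) serve fast-spiking interneurons.

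Because the vectors carried a form of CREB and Fosb encodes a subunit of AP-1, the promoters were searched for the motifs of both factors. The windows were the 250 bases before each RefSeq transcript start on GRCm38.p6, with 30 windows for 25 of the 40 members. On both strands, the full cAMP response element TGACGTCA was in 0 of the 30, against 1.55% of all 32851 windows. The AP-1 motif, TGACTCA or TGAGTCA, was also in 0, against 4.46%. The short CREB core, TGACG or CGTCA, which the full cAMP element contains, was in 5 of the 30 windows, against 17.8% of all. These 5 are shown because they are the members’ only matches to a CREB motif in this window, read 5′ to 3′ on the gene’s strand with the core in capitals.
Kcna6 (chr6:126740675-126740698, minus strand): agcaggcggggcctgccaCGTCAc
Kcnc1 (chr7:46396218-46396254, plus strand): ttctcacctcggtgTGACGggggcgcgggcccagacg
Kcnc4 (chr3:107458940-107458980, minus strand): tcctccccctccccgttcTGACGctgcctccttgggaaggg
Kcng3 (chr17:83632081-83632121, minus strand): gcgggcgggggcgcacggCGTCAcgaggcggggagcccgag
Kcnh5 (chr12:75177368-75177408, minus strand): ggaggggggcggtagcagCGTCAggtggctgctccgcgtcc
The core starts 6 bases before the start in Kcna6, 58 in Kcnh5, 64 in Kcnc4, 208 in Kcng3 and 236 in Kcnc1. A match describes these letters only, and none of the 5 genes passed the test between guides in any arm.

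Library totals ran from 12430387 to 69568367 counts (median 31393804), of which the members held 971 to 233853 (median 52981). In 4 Fosb-guide libraries over 90% of the counts fell on 10 genes, 2 of them female D2, 1 female D1-D2 and 1 male D1-D2. Sequencing batch 2 held 3 Fosb-guide and 6 control libraries, all from male D2 mice, and batch 1 all others. A male D1 and a male D1-D2 library with the Fosb guide, numbered 18722 and 18749, had nearly the same counts, with a median chi-square per gene of 0.746. Over the 269 pairs within groups the lowest was 2.02. They may be 1 library under both labels, which the files do not settle, and each was kept under its label. Leaving both out changed no count of members that passed by more than 1.5 times, nor did leaving out the 4 dominated by 10 genes. Counts at an unadjusted p under 0.05 did move. Without the pair the female D1 minus D2 guide effect had 2 in place of 4, against 3.59% of all genes in place of 3.58%. The mean of the 6 arms had 0 in place of 1, against 9.71% of all genes in place of 9.52%. Between male D1 and D2 controls there were 2 in place of 1, and between the sexes in D1-D2 controls 4 in place of 2. In the main fit these comparisons had 2.38% and 7.04% of all genes. Without the 4 dominated libraries the count in the mean of the 6 arms was also 0, against 8.91% of all genes. Fosb itself ranged over 3.21 to 16.7 CPM with the Fosb guide (median 6.40, n = 44), against 2.43 to 13.5 CPM with the control guide (median 7.37, n = 43). By arm, its medians with the Fosb and the control guide were 9.81 and 7.16 in female D1, 6.49 and 4.47 in male D1, 5.96 and 7.48 in female D2, 6.13 and 10.2 in male D2, 6.48 and 6.73 in female D1-D2 and 10.3 and 9.07 CPM in male D1-D2 mice. The ranges overlapped in every arm, the log2 fold changes ran from −0.37 to 0.60, and Fosb passed in none of the 6 in edgeR, with an unadjusted p under 0.05 in 1 (male D1-D2, p = 0.0315). Its level therefore did not check the labels. Markers of medium spiny neurons were present in every library, the 5 shared ones summing to 418 to 3427 CPM. Summed cortical glutamatergic markers ranged over 32.9 to 1214 CPM and interneuron markers over 35.5 to 215 CPM.

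All Kv families were transcribed in the accumbens, and the 8 genes of the highest level per kilobase of exon held 55.5% of the members’ summed level per kilobase. Levels are read counts scaled to library size by TMM (CPM), and they are set between genes only per kilobase of exon. The summed level of the 40 members was 901 to 3228 CPM across the 87 libraries (median 1444). Of the 40, 36 averaged at least 1 CPM and 23 at least 10 CPM. In order per kilobase, Kcnd2 came first, and the first 8 included Kcnd2 (26.2 CPM per kb), Kcna4 (19.6), Kcna1 (16.3), Kcnq5 (15.6), Kcnv1 (12.9), Kcna5 (12.3) and Kcnf1 (11.6). Of the 39 neighbouring pairs in the full order, 38 differed by less than 1 SD over libraries, the exception being Kcng4 and Kcnv2.

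**Figure D1:**
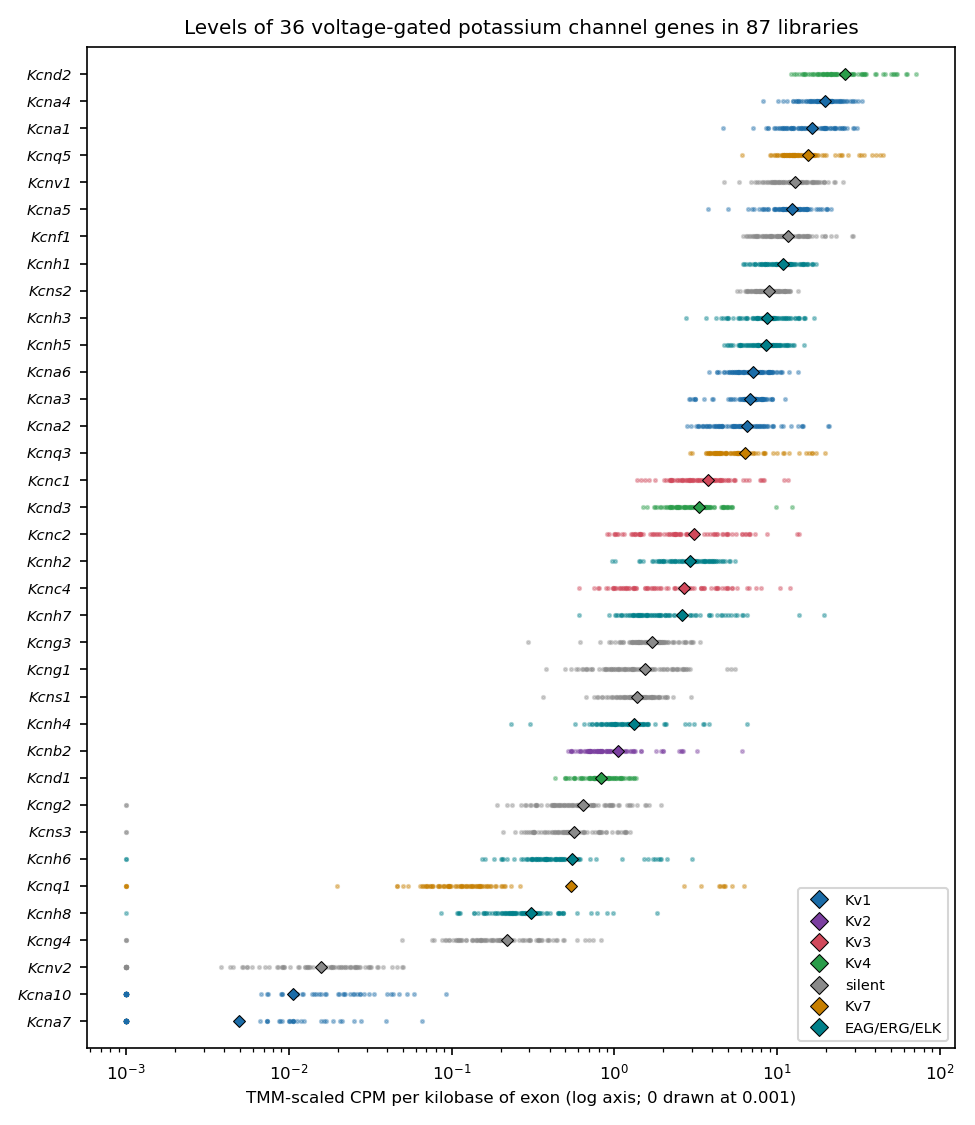
Level of 36 Kv channel genes in TMM-scaled CPM per kilobase of exon (log axis, with 0 drawn at 0.001). Each dot is 1 of the 87 libraries and each diamond the mean of the 12 group means, coloured by family. Kcnd2 stands at the top, and Kcna7, Kcna10 and Kcnv2 at the bottom.

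Among Kv1 genes, whose summed level per kilobase was the highest of the families at 69.1 ± 13.1 CPM per kb (SD over 87 libraries), Kcna4 led. It encodes the fast-inactivating Kv1.4, and ranged over 39.9 to 159.9 CPM. Kcna1 (Kv1.1, found on axons) ranged over 22.4 to 149 CPM and Kcna2 (Kv1.2, a Kv1.1 partner linked to spike delay in medium spiny neurons) over 33.4 to 250.2 CPM. Kcna5 ranged over 10.7 to 61.7 CPM, Kcna6 over 22.9 to 79.9 CPM and Kcna3, best known from T cells and microglia, over 5.44 to 21.4 CPM. Kcna10 had no count in 48 of the 87 libraries and Kcna7, a muscle subunit, in 58. For Kcna6, 39.6% of the exon bases overlap the antisense gene Gm26673, and the counting’s strand setting is not given in the sources used.

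Kv4 genes summed to 31.0 ± 13.3 CPM per kb (SD over 87 libraries). Most of this was Kcnd2, the A-type subunit Kv4.2, at 62.6 to 367 CPM, while Kcnd3 (Kv4.3) ranged over 14.4 to 119 CPM and Kcnd1 over 2.28 to 7.18 CPM. Kv7 genes summed to 36.6 ± 14.6 CPM per kb (SD over 87 libraries), with the M-current subunits Kcnq5 at 47.0 to 344 CPM and Kcnq3 at 42.8 to 289 CPM. The cardiac subunit Kcnq1 ranged over 0 to 25.7 CPM, and its high values were all in batch 2, described below. The ranges and SDs over the 87 libraries pool both batches for every member. The highest group means of Kcnd2, Kcnq5 and Kcnq3 were 254, 241 and 186 CPM, each in male D2 controls. Within batch 1 their highest group means were 153, 125 and 98.3 CPM. For Kcna4 the highest was 107 CPM with both batches and 109 CPM within batch 1.

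Kv2 genes, which encode delayed rectifiers of the soma and proximal dendrite, included Kcnb2 at 7.92 to 92.4 CPM. Silent subunits, with which Kv2 channels assemble, summed to 39.6 ± 9.60 CPM per kb (SD over 87 libraries). They were led by Kcnv1 (21.6 to 116 CPM), Kcnf1 (29.7 to 141 CPM) and Kcns2 (31.8 to 75.6 CPM). Kcns3, a silent subunit of parvalbumin interneurons in cortex, ranged over 0 to 3.95 CPM, and Kcng1 to Kcng4 had mean levels of 6.97, 1.91, 5.74 and 0.839 CPM. Kv3 genes summed to 11 ± 6.56 CPM per kb (SD over 87 libraries), with Kcnc1 at 13.1 to 111 CPM and Kcnc2 at 6.43 to 98.1 CPM.

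The Kcnh genes, which encode the EAG, ERG and ELK channels, summed to 36.0 ± 8.16 CPM per kb (SD over 87 libraries). Kcnh1 (EAG1) ranged over 45.4 to 128 CPM, Kcnh3 (an ELK channel of the forebrain) over 15.8 to 96.7 CPM and Kcnh5 (EAG2) over 19.1 to 59.5 CPM. Kcnh2, the ERG1 gene whose product carries a repolarising current in the heart, ranged over 4.67 to 26.9 CPM. Kcnh7, a further ERG gene, ranged over 9.23 to 298 CPM. Kcnh4, an ELK gene, ranged over 0.914 to 26.0 CPM, and Kcnh6 and Kcnh8 had mean levels of 1.95 and 1.39 CPM.

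Within batch 1, the highest group mean of a tested member was 1.30 to 3.24 times its lowest (median 1.91), and the ratio was over 2 for 14 of the 37. The male D1 control group, with 4 libraries, held the lowest mean for 17 of the 37 members, and the female D1 Fosb-guide group the highest for 15. This was not counted over all genes, so it is not shown to be a trait of the members. Spread within groups was wide for Kcnq1, Kcnh7 and Kcnc4, with an SD within groups of 1.73, 0.932 and 0.806 times the mean of the 12 group means. These pool both batches inside the male D2 groups, and within batch 1 the same SDs were 0.494, 0.547 and 0.715 times the mean. Within batch 1 the spread was narrowest for Kcna3 at 0.145 and Kcns2 at 0.167 times.

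Many members varied with the marker levels of their library. Levels of the 37 members, as log2(CPM + 0.1), were correlated over the 78 batch 1 libraries with the summed markers of medium spiny neurons, cortical glutamatergic neurons and GABAergic interneurons, 111 relations in all. The p-values came from permutation tests with 100000 resamples, adjusted over the 111. Libraries were exchanged freely across the groups of sex, arm and guide, so differences between groups enter these p-values. The near-alike libraries 18722 and 18749 counted as separate points. With medium spiny markers 22 members had a positive relation at an adjusted p under 0.05 and 3 a negative one (Kcnh8, Kcnc2 and Kcnq1). With cortical markers 22 were positive and with interneuron markers 27, and none was negative at that level with either. Other genes were not correlated with these markers, so no share of all genes stands beside the counts. They do not set the members apart from other genes. Members and markers share the library they were counted in and its scaling, so libraries rather than cells are the points.

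With the medium spiny markers, Kcnq5 had Pearson’s r = 0.900 and Spearman’s rho = 0.897 (adjusted permutation p = 2.41e-05 and 2.31e-05), r = 0.869 without the 2 farthest libraries and r = 0.688 in the 9 batch 2 libraries (exact permutation p = 0.0321, adjusted 0.0673). Kcna4 had Pearson’s r = 0.878 and Spearman’s rho = 0.854 (adjusted permutation p = 2.41e-05 and 2.31e-05), r = 0.850 without the 2 farthest libraries and r = 0.969 in the 9 batch 2 libraries (exact permutation p = 0.000157, adjusted 0.00249). Kcna4 thus followed these markers in the 2 batches, while for Kcnq5 the relation did not pass in batch 2. Kcna5 had Pearson’s r = 0.817 and Spearman’s rho = 0.777 (adjusted permutation p = 2.41e-05 and 2.31e-05), r = 0.760 without the 2 farthest libraries and r = 0.950 in the 9 batch 2 libraries (exact permutation p = 0.000887, adjusted 0.00587). Kcnd2 had Pearson’s r = 0.814 and Spearman’s rho = 0.816 (adjusted permutation p = 2.41e-05 and 2.31e-05), r = 0.797 without the 2 farthest libraries and r = 0.411 in the 9 batch 2 libraries (exact permutation p = 0.268, adjusted 0.316). The Kcnd2 relation was therefore not shown in batch 2. Kcna1 and Kcnh3 had r = 0.762 and 0.749 in batch 1 (rho = 0.705 and 0.720, each with an adjusted permutation p of 2.41e-05), but not in batch 2 (exact permutation p = 1.00 and 0.0508, the Kcnh3 value being −0.642).

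With the cortical markers, Kcnh7 had Pearson’s r = 0.828 and Spearman’s rho = 0.731 (adjusted permutation p = 2.41e-05 and 2.31e-05), r = 0.799 without the 2 farthest libraries and r = 0.960 in the 9 batch 2 libraries (exact permutation p = 3.31e-05, adjusted 0.00122). Kcnf1 had Pearson’s r = 0.794 and Spearman’s rho = 0.790 (adjusted permutation p = 2.41e-05 and 2.31e-05), r = 0.758 without the 2 farthest libraries and r = 0.889 in the 9 batch 2 libraries (exact permutation p = 0.00153, adjusted 0.00772). Both relations held in each batch. Kcnf1 followed the interneuron markers as closely, with r = 0.792 and rho = 0.803 in batch 1 and r = 0.897 in batch 2. Kcnh7 had r = 0.599 with them in batch 1 and 0.882 in batch 2. With the interneuron markers, Kcna2 had Pearson’s r = 0.851 and Spearman’s rho = 0.854 (adjusted permutation p = 2.41e-05 and 2.31e-05), r = 0.846 without the 2 farthest libraries and r = 0.943 in the 9 batch 2 libraries (exact permutation p = 0.000331, adjusted 0.00408). Kcnc1, the Kv3.1 gene of fast-spiking cells, had Pearson’s r = 0.804 and Spearman’s rho = 0.800 (adjusted permutation p = 2.41e-05 and 2.31e-05), r = 0.785 without the 2 farthest libraries and r = 0.958 in the 9 batch 2 libraries (exact permutation p = 0.000154, adjusted 0.00249). These also held in both batches. With the cortical markers Kcna2 and Kcnc1 had r = 0.736 and 0.458 in batch 1, and 0.860 and 0.865 in batch 2. In the Kv3 genes Kcnc1, Kcnc2 and Kcnc4 the r with interneuron markers in batch 1 was 0.804, 0.762 and 0.818. With the cortical markers Kcnc2 and Kcnc4 had r = 0.582 and 0.772 in batch 1. In batch 2 each had r = 0.983 with the cortical markers, beside 0.939 and 0.881 with the interneuron markers. For Kcna5 the r with interneuron markers in batch 1 was 0.00600 (adjusted permutation p = 0.968). The plot of members against summed markers shows these relations.

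**Figure D2:**
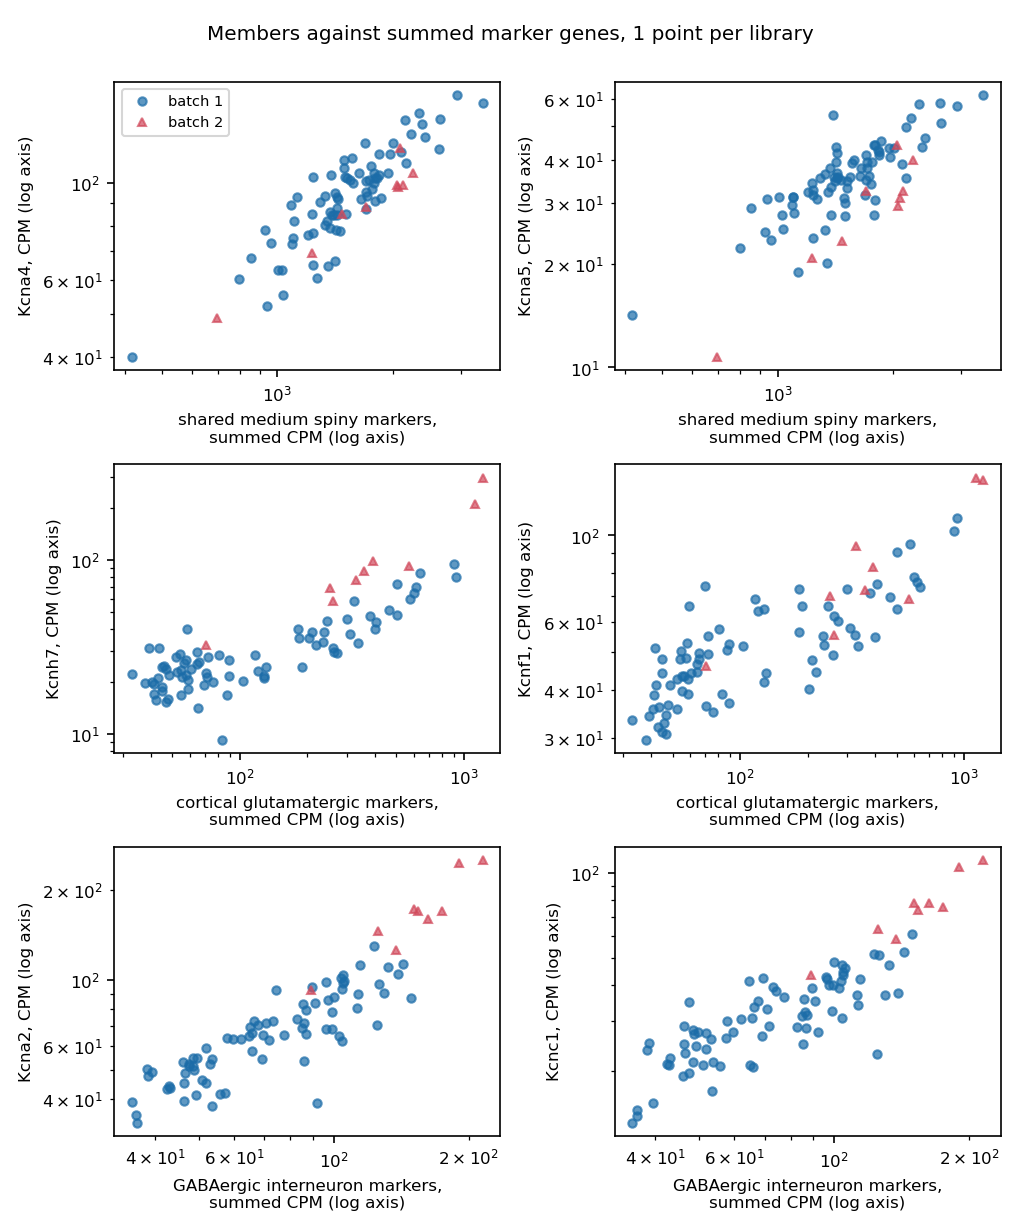
Each panel sets the level of a Kv channel gene (TMM-scaled CPM, log axis) against the summed level of a marker list (CPM, log axis), 1 point per library, with batch 1 as circles and batch 2 as triangles. Kcna4 and Kcna5 rise with medium spiny markers, Kcnh7 and Kcnf1 with cortical markers, and Kcna2 and Kcnc1 with interneuron markers. Each gene is drawn against 1 list only, and Kcnf1 followed the interneuron markers as closely as the cortical ones.

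The Fosb guide was set against the control guide in each arm, and 0 of the 37 tested members passed in any of the 6 arms or in their mean by edgeR’s quasi-likelihood test (Benjamini-Hochberg adjusted over 25420 genes, threshold 0.05). The members named below for each arm are among the 4 with the smallest unadjusted p in edgeR, except Kcna1 in male D1 mice, which limma-voom called. The share of all genes called in these arms was at most 0.0629%, so few genes of any kind passed. No library label enters the guide comparison of more than 1 arm, though the pair of nearly equal counts stands in the male D1 and the male D1-D2 arm.

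**Figure D3:**
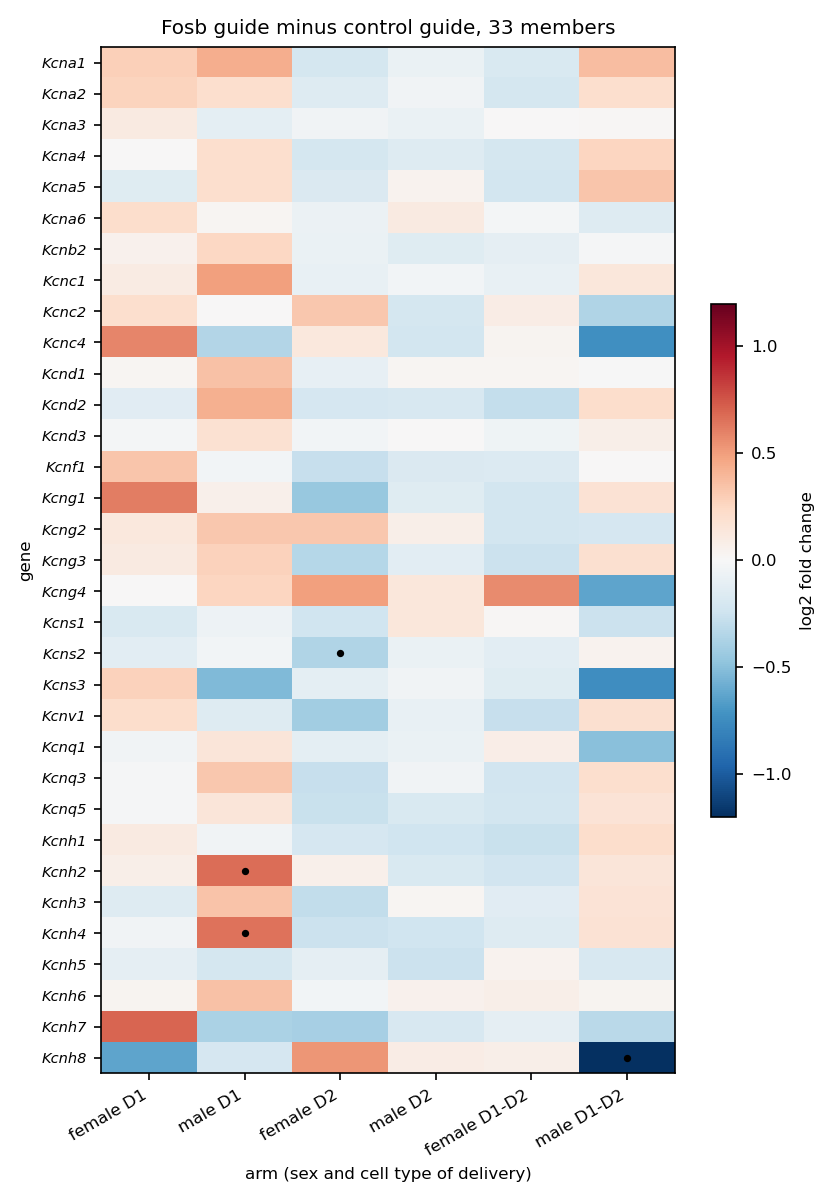
Log2 fold changes, Fosb guide minus control guide, of 33 tested Kv channel genes (rows, by family) in the 6 arms (columns). Red is higher and blue lower with the Fosb guide, and a black dot marks an unadjusted p under 0.05. No cell passed after adjustment.

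In female D1 mice the test called 0 of the 37 members in edgeR, against 0.00393% of all genes, and 0 had an unadjusted p under 0.05, against 4.48% of all genes. DESeq2 called 0 (0 unadjusted) and limma-voom 0 (0 unadjusted). The log2 fold change was above 0 for 24 members and below 0 for 13, with a median of 0.070, against 0.0036 over all 25420 genes. The smallest p belonged to Kcnh7, the ERG gene that followed cortical markers. It had 20.1 to 94.6 CPM (median 33.4) in the 6 Fosb-guide libraries and 21.5 to 44.6 CPM (median 24.8) in the 8 controls. The ranges overlapped, and 2 Fosb-guide libraries stood above the highest control and 2 below the lowest. The log2 fold change was 0.70 ± 0.38 (SE), with an adjusted p of 1 in edgeR. Kcng1, a silent subunit, had a log2 fold change of 0.62 ± 0.37.

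In the same libraries the summed cortical markers were 103 to 901 CPM (median 286) with the Fosb guide and 46.8 to 310.4 CPM (median 68.7) with the control guide, all 10 markers being detected in each group. In a fit with the summed cortical and medium spiny markers as covariates, the log2 fold changes were −0.17 for Kcnh7 and −0.00054 for Kcng1. In that fit 6 members were above 0 and 31 below, with a median of −0.12, against 0.0063 over all genes.

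In male D1 mice the test called 0 of the 37 members in edgeR, against 0% of all genes, and 2 had an unadjusted p under 0.05, against 7.11% of all genes. DESeq2 called 0 (2 unadjusted) and limma-voom 2 (13 unadjusted), against 2.94% of all genes called by limma-voom (21.9% unadjusted). Those called by limma-voom included Kcna1, higher with the Fosb guide. The edgeR count at an unadjusted p was 0 without control 18069 (9.55% of all genes) and 7 without control 18383 (7.32%). With the marker covariates described above it was 6 (7.23%). In DESeq2 8.07% of all genes had an unadjusted p under 0.05. Log2 fold changes were above 0 for 26 members and below 0 for 11, with a median of 0.20, against 0.030 over all 25420 genes. With the marker covariates 26 were again above 0 and 11 below, with a median of 0.17, against 0.049 over all genes. Kcnh2 had 4.92 to 18.6 CPM (median 9.75) in the 7 Fosb-guide libraries and 4.67, 6.89, 6.99 and 9.45 CPM in the 4 controls. Of the 7, 5 stood above every control, and the log2 fold change was 0.67 ± 0.27 (unadjusted p = 0.0143, edgeR adjusted p = 0.686). Kcnh4, an ELK gene, had 3.38 to 6.32 CPM (median 4.38) with the Fosb guide and 2.58, 2.76, 2.89 and 3.98 CPM with the control guide. Here 6 of 7 stood above every control (log2 fold change 0.65 ± 0.28, unadjusted p = 0.0219 in edgeR). Kcnc1 and Kcnd2 had log2 fold changes of 0.49 ± 0.25 and 0.42 ± 0.22.

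Kcna1 had 41.1 to 75.5 CPM (median 66.7) with the Fosb guide, against 34.0, 41.9, 42.0 and 67.4 CPM with the control guide (edgeR log2 fold change 0.44 ± 0.25). The groups overlapped, and the control numbered 18383 stood above the other 3 controls. Its summed cortical markers were 600.5 CPM, the highest of the 4 controls, whose median was 44.6 CPM. In this library 56.2% of the counts fell on 10 genes, against 16.8% to 21.2% in the other 3 controls. Summed medium spiny markers were 855 to 1962 CPM (median 1519) with the Fosb guide and 962 to 1292 CPM (median 1167) with the control guide. In the fit with marker covariates edgeR also called 0 members.

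In female D2 mice the test called 0 of the 37 members in edgeR, against 0% of all genes, and 1 had an unadjusted p under 0.05, against 1.66% of all genes. DESeq2 called 0 (1 unadjusted) and limma-voom 0 (1 unadjusted), against 1.45% and 2.91% of all genes unadjusted. The log2 fold change was above 0 for 6 members and below 0 for 31, with a median of −0.18, against −0.025 over all 25420 genes, and 43.1% of all genes were above 0. Kcns2, a silent subunit with little spread within groups, had 38.8 to 53.5 CPM (median 41.5) with the Fosb guide and 40.1 to 65.8 CPM (median 59.8) with the control guide. All 8 Fosb-guide libraries stood below the control median, and 2 below every control. The log2 fold change was −0.36 ± 0.12 (unadjusted p = 0.00289, edgeR adjusted p = 1). Kcnv1, which modifies Kv2 currents, had 36.9 to 54.4 CPM (median 45.8) with the Fosb guide and 43.6 to 89.8 CPM (median 61.2) with the control guide. All 8 again stood below the control median (log2 fold change −0.42 ± 0.21). Kcng3 and Kcnq5 had −0.34 ± 0.20 and −0.27 ± 0.16. Summed medium spiny markers were 1099.6 to 1499 CPM (median 1418) with the Fosb guide and 929 to 2419 CPM (median 1624) with the control guide. In the fit with the cortical and medium spiny sums as covariates, 10 members were above 0 and 27 below. Their median was −0.053, against −0.022 over all genes. The part of the medium spiny markers alone was not tested.

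In male D2 mice the test called 0 of the 37 members in edgeR, against 0.0629% of all genes, and 0 had an unadjusted p under 0.05, against 2.18% of all genes. DESeq2 called 0 (0 unadjusted) and limma-voom 0 (0 unadjusted). Log2 fold changes were above 0 for 12 members and below 0 for 25, with a median of −0.080, against 0.011 over all 25420 genes. With the marker sums as covariates 22 were above 0 and 15 below, with a median of 0.015, against 0.022 over all genes. Kcnh5, the EAG2 gene, had 19.1 to 41.6 CPM (median 34.5) with the Fosb guide and 24.3 to 52.0 CPM (median 33.9) with the control guide, overlapping widely, with a log2 fold change of −0.26 ± 0.19. Kcnh1 had −0.24 ± 0.18, Kcnq5 −0.18 ± 0.18 and Kcnh4 −0.24 ± 0.24. These values rest on a batch term, and in batch 1 alone (4 Fosb-guide and 2 control libraries) Kcnh4 was 0.22 and the count of members called was again 0.

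In female D1-D2 mice the test called 0 of the 37 members in edgeR, against 0% of all genes, and 0 had an unadjusted p under 0.05, against 3.4% of all genes. DESeq2 called 0 (0 unadjusted) and limma-voom 0 (3 unadjusted), the last against 0.763% of all genes called and 12.6% unadjusted. The log2 fold change was above 0 for 10 members and below 0 for 27, with a median of −0.13, against −0.0039 over all 25420 genes. With the marker sums as covariates 9 were above 0 and 28 below, with a median of −0.054, against −0.0056 over all genes. Kcnd2, the member of the highest level, had 79.4 to 236 CPM (median 116) in the 12 Fosb-guide libraries and 100.2 to 231 CPM (median 153) in the 8 controls. Of the 12, 2 stood above the control median, and the ranges overlapped (log2 fold change −0.28 ± 0.16). Kcnh1, Kcng4 and Kcnq5 had −0.27 ± 0.15, 0.57 ± 0.33 and −0.22 ± 0.15.

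In male D1-D2 mice the test called 0 of the 37 members in edgeR, against 0.00393% of all genes, and 1 had an unadjusted p under 0.05, against 3.22% of all genes. DESeq2 called 0 (1 unadjusted) and limma-voom 0 (0 unadjusted), against 3.34% and 1.83% of all genes unadjusted. Log2 fold changes were above 0 for 23 members and below 0 for 14, with a median of 0.067, against −0.026 over all 25420 genes. With the marker sums as covariates 22 were above 0 and 15 below, with a median of 0.017, against −0.029 over all genes. Kcnh8, an ELK gene of low level, had 0.510, 0.990, 1.06 and 1.07 CPM in the 4 Fosb-guide libraries and 0.492 to 8.31 CPM (median 1.09) in the 7 controls, a log2 fold change of −1.2 ± 0.51 (unadjusted p = 0.0205 in edgeR). A single control, numbered 19511, stood far above the rest. The control mean was 2.03 CPM with it and 0.984 CPM without it, beside 0.909 CPM with the Fosb guide. Kcns3 had 0.990, 1.02, 1.07 and 1.44 CPM with the Fosb guide, inside the control range of 0.655 to 3.72 CPM (log2 fold change −0.74 ± 0.41). Kcna1 and Kcna5 had 0.37 ± 0.25 and 0.33 ± 0.24.

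Averaged over the 6 arms with equal weight, the test called 0 of the 37 members in edgeR, against 0% of all genes, and 1 had an unadjusted p under 0.05, against 9.52% of all genes. DESeq2 called 0 (1 unadjusted) and limma-voom 0 (1 unadjusted), against 10.4% and 14.2% of all genes unadjusted. The log2 fold change was above 0 for 17 members and below 0 for 20, with a median of −0.0066, against 0.0022 over all 25420 genes. The log2 fold changes ran from −0.23 to 0.17 with a median SE of 0.092. Kcns2 had the smallest p (−0.11 ± 0.052, unadjusted p = 0.0342, edgeR adjusted p = 0.518), followed by Kcnh5 (−0.14 ± 0.078) and Kcns3 (−0.21 ± 0.14). The plot of members by group shows the libraries behind these values.

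**Figure D4:**
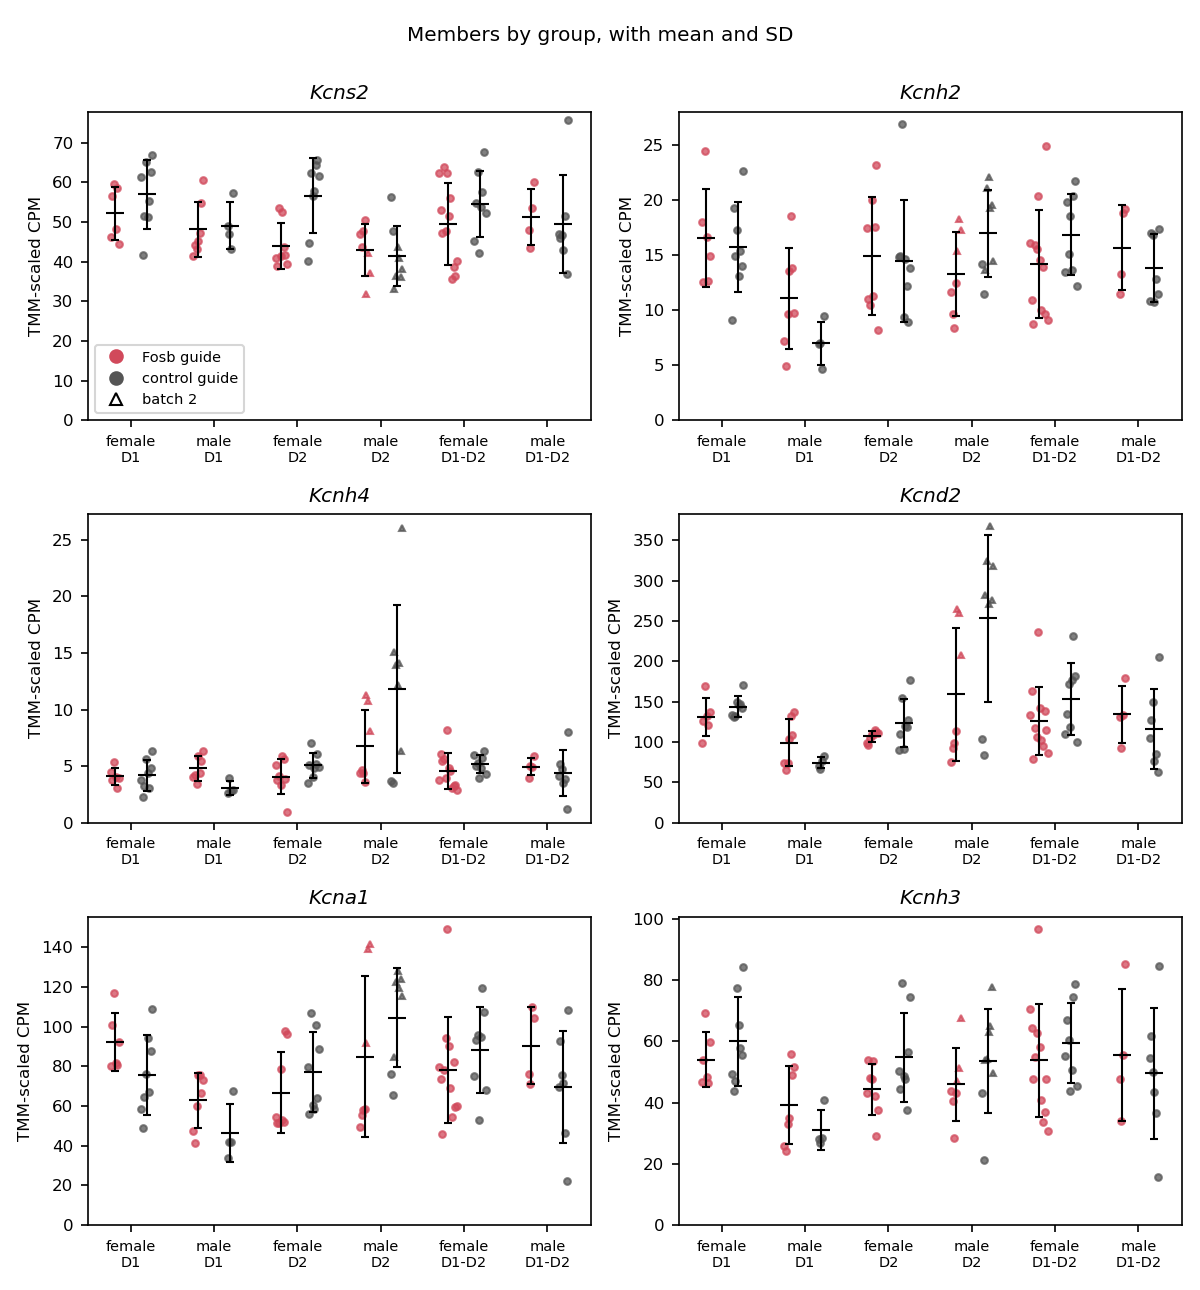
TMM-scaled CPM of Kcns2, Kcnh2, Kcnh4, Kcnd2, Kcna1 and Kcnh3 in each library, by arm, with Fosb-guide libraries (red) left of control libraries (grey), batch 2 as triangles, and mean and SD as black bars. The guides overlap in every panel and arm, and the batch 2 triangles of the male D2 arm lie above its circles for Kcnd2.

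The guide effect was next compared between D1 and D2 arms, as D1 effect minus D2 effect, and again no member passed. In the mean of both sexes the test called 0 of the 37 members in edgeR, against 0.00393% of all genes, and 4 had an unadjusted p under 0.05, against 3.65% of all genes. DESeq2 called 0 (5 unadjusted) and limma-voom 0 (11 unadjusted), against 4.09% and 7.79% of all genes unadjusted. The edgeR count at an unadjusted p was 1 with the marker covariates (3.96% of all genes) and 1 without male D1 control 17789 (3.42%). It was 2 without 18068 (3.37%) and 10 without 18383 (5.96%). Of the 37, 33 had a difference above 0 and 4 below, with a median of 0.25, against 0.025 over all genes and 55.3% of all genes above 0. With the cortical and medium spiny marker sums as covariates, 21 were above 0 and 16 below, with a median of 0.032, against 0.027 over all genes. Kcna1 had the smallest p, with a difference of 0.51 ± 0.22 (unadjusted p = 0.0226, edgeR adjusted p = 1). Its levels were 80.2 to 117 CPM (median 87.2) and 48.8 to 109 CPM (median 71.3) with the Fosb and control guides in female D1 mice, and 51.4 to 97.6 CPM (median 53.5) and 55.7 to 107 CPM (median 71.9) in female D2 mice. In the D1 arm 6 of 6 Fosb-guide libraries were above the control median, and in the D2 arm 3 of 8. Kcnh4 had a difference of 0.55 ± 0.25 (unadjusted p = 0.0274 in edgeR).

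By sex, in females the test called 0 of the 37 members in edgeR, against 0.00393% of all genes, and 4 had an unadjusted p under 0.05, against 3.58% of all genes. The 4 members with the smallest p in females were Kcnh8 (−1.17 ± 0.55), Kcnh7 (1.09 ± 0.52), Kcng1 (1.07 ± 0.52) and Kcnv1 (0.63 ± 0.31), each with an adjusted p of 1. Of the 37 members, 32 had a difference above 0 and 5 below, with a median of 0.21, against 0.025 over all genes. With the marker sums as covariates 13 were above 0 and 24 below, with a median of −0.066, against 0.031 over all genes. The Kcnh7 difference was then −0.028. In males the test called 0 of the 37 members in edgeR, against 0% of all genes, and 3 had an unadjusted p under 0.05, against 1.84% of all genes. They were led by Kcnh2 (0.85 ± 0.35), Kcnh4 (0.89 ± 0.37) and Kcnd2 (0.61 ± 0.29). In males 29 members were above 0 and 8 below, with a median of 0.22, against 0.013 over all genes. With the marker sums as covariates 28 were above 0 and 9 below, with a median of 0.11, against 0.029 over all genes. In females DESeq2 called 0 (4 unadjusted) and limma-voom 0 (1 unadjusted), and in males DESeq2 called 0 (3 unadjusted) and limma-voom 0 (9 unadjusted). The shares of all genes at an unadjusted p under 0.05 were 3.56% and 3.49% in females and 2.05% and 9.96% in males.

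Between the control groups alone, D1 minus D2, no member passed. In females the test called 0 of the 37 members in edgeR, against 0.0197% of all genes, and 0 had an unadjusted p under 0.05, against 3.91% of all genes. In males it called 0 of the 37 members in edgeR, against 0% of all genes, and 1 had an unadjusted p under 0.05, against 2.38% of all genes. In the mean of both sexes it called 0, against 0.0118% of all genes, with 1 unadjusted, against 2.56% of all genes. In females DESeq2 called 0 (0 unadjusted) and limma-voom 0 (2 unadjusted), in males DESeq2 called 0 (1 unadjusted) and limma-voom 0 (7 unadjusted) and in the mean DESeq2 called 0 (3 unadjusted) and limma-voom 0 (3 unadjusted). The shares of all genes at an unadjusted p under 0.05 in females were 4.37% in DESeq2 and 8.28% in limma-voom. For males and for the mean these shares are not given here, so those unadjusted counts are not read as a result about the members. These mice differ in the Cre line, and the RNA is of the whole tissue in both, so the comparison is not one of D1 with D2 neurons.

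In female controls Kcnh8 had 0.743 to 4.11 CPM (median 1.39) in D1 and 0.390 to 2.05 CPM (median 0.966) in D2 mice, overlapping (log2 fold change 0.68 ± 0.36). Kcng4, Kcng1 and Kcnd2 had 0.64 ± 0.36, −0.47 ± 0.35 and 0.22 ± 0.17. In male controls Kcnh2 had 4.67, 6.89, 6.99 and 9.45 CPM in D1 and 11.5 to 22.1 CPM (median 16.9) in D2 mice, so the groups did not overlap. Of the 8 D2 controls 6 were of batch 2, and the log2 fold change with the batch term was −0.81 ± 0.31 (unadjusted p = 0.0101, edgeR adjusted p = 1). Kcnd2, Kcnh4 and Kcng3 followed with −0.48 ± 0.26, −0.57 ± 0.33 and −0.47 ± 0.29. In the mean of both sexes Kcnh4 had the smallest p (−0.42 ± 0.20), then Kcnh2 (−0.34 ± 0.18) and Kcng3 (−0.31 ± 0.17). Without a batch term the male comparison called 24 members, against 49.6% of all genes, and the mean 19, against 34.2%.

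The members differed between the sexes in the control libraries. In the mean of the 3 arms, 14 of the 37 were higher in females and 1 was lower by edgeR’s quasi-likelihood test. Of all genes 28.6% passed (39.8% unadjusted), 15.3% higher and 13.2% lower. The median log2 fold change of the members was 0.31, against 0.0016 over all genes, and 34 of 37 were above 0, against 50.2% of all genes. Higher were the Kv1 genes Kcna1 (0.45 ± 0.14), Kcna2 (0.47 ± 0.14) and Kcna5 (0.35 ± 0.13), the Kv3 gene Kcnc1 (0.55 ± 0.14) and all 3 Kv4 genes, Kcnd1 (0.34 ± 0.10), Kcnd2 (0.54 ± 0.12) and Kcnd3 (0.42 ± 0.14). The M-current gene Kcnq3 (0.41 ± 0.12), Kcnh2 (0.56 ± 0.14), Kcnh3 (0.60 ± 0.14) and the silent subunit Kcng4 (0.79 ± 0.26) were higher too. The 1 lower member was Kcnh5 (−0.30 ± 0.12). DESeq2 called 13 (15 unadjusted) and limma-voom 14 (22 unadjusted), against 32.6% and 23.7% of all genes, and without a batch term edgeR called 6, against 22.3%. Adjusted p-values in edgeR ran from 0.000814 for Kcnd2 to 0.0460 for Kcnh5 among the members named.

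By arm, members passed in the D1 arm, where 13 members were higher in females and 0 lower, against 22.4% of all genes called (35.9% unadjusted), 12.6% higher and 9.71% lower. They included Kcnh2, Kcnd2, Kcnc1, Kcnh3, Kcng4, Kcnd3, Kcnd1, Kcna1, Kcnb2, Kcnq3 and Kcna2. Kcnd2 had 131 to 171 CPM (median 144) in the 8 female and 67.1, 70.1, 76.6 and 82.8 CPM in the 4 male controls. The sexes did not overlap, and the log2 fold change was 0.96 ± 0.22 (1.94-fold, edgeR adjusted p = 0.00184). Kcnh3 had 43.9 to 84.2 CPM (median 56.7) in females and 26.6, 28.1, 28.5 and 40.9 CPM in males, again without overlap (0.95 ± 0.26, edgeR adjusted p = 0.00666). Kcnh2 had 9.10 to 22.6 CPM (median 15.1) in females and 4.67, 6.89, 6.99 and 9.45 CPM in males, with 7 of 8 females above every male (1.17 ± 0.27, edgeR adjusted p = 0.00179). For Kcnc1 7 of 8 females stood above every male (1.00 ± 0.25). Kcng4 had the largest log2 fold change of the 13, 1.66 ± 0.51, at low levels of 0.404 to 2.81 CPM (median 1.31) in females and 0.333, 0.367, 0.386 and 0.574 CPM in males.

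The 4 male D1 controls also enter the guide comparison of their arm and the comparison of D1 with D2 controls, so these share libraries. In the same D1 controls the summed medium spiny markers were 1026 to 2642 CPM (median 1681) in females and 962 to 1292 CPM (median 1167) in males, and the summed interneuron markers 46.2 to 104 CPM (median 78.9) and 36.3 to 125 CPM (median 44.9). Cortical markers were 46.8 to 310.4 CPM (median 68.7) and 32.9 to 600.5 CPM (median 44.6). A further 2 marker lists did not overlap between the sexes in these controls. Summed oligodendrocyte precursor markers (Pdgfra and Cspg4) were 50.7 to 95.3 CPM (median 76.1) in females and 33.3 to 46.6 CPM (median 39.4) in males, and cholinergic markers 42.0 to 78.9 CPM (median 47.8) and 17.0 to 29.4 CPM (median 26.9). Astrocyte markers, which overlapped, were 1744 to 3206 CPM (median 2389.9) and 1346 to 1833 CPM (median 1530.1). The part of these 3 lists in the sex difference was not tested. With the cortical and medium spiny sums as covariates, 11 members were called in the D1 arm, against 18.3% of all genes, 9 of them also called without, and 9 in the mean of the 3 arms, against 22.1%, 8 of them also called without. Leaving out 1 male D1 control at a time gave 6 to 13 members in the D1 arm, with 6 without 18068 (14.3% of all genes), 6 without 18069 (19%), 8 without 17789 (12.2%) and 13 without 18383 (20.9%). The fit with DESeq2 size factors gave 8, against 24% of all genes, and the fit without a batch term 5, against 10.2%.

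In the D2 arm 0 of the 37 members passed in edgeR (6 unadjusted), against 0.0551% of all genes (10.8% unadjusted), and DESeq2 called 0 (3 unadjusted) and limma-voom 0 (3 unadjusted). Of the 8 male controls 6 were of batch 2. Kcnd2 had 90.3 to 177 CPM (median 119) in female and 84.3 to 367 CPM (median 279) in male D2 controls. The high male values were those of batch 2 (271 to 367 CPM, n = 6), and the 2 batch 1 males had 84.3 and 104 CPM. Kcnd1, Kcnc1 and Kcnh3 were among the 4 of the smallest p (0.43 ± 0.19, 0.56 ± 0.25 and 0.60 ± 0.28). In the D1-D2 arm 0 passed in edgeR (2 unadjusted), against 0.0629% of all genes (7.04% unadjusted), and DESeq2 called 0 (3 unadjusted) and limma-voom 0 (1 unadjusted). There Kcnd2 had 100.2 to 231 CPM (median 153) in females and 62.6 to 205 CPM (median 104) in males, overlapping (0.40 ± 0.18). Kcnv1, Kcnh8 and Kcna5 had 0.50 ± 0.22, −0.72 ± 0.36 and 0.37 ± 0.20. For the D2 and D1-D2 arms the shares of all genes in DESeq2 and limma-voom are not given here.

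The sex difference in D1 controls minus that in D1-D2 controls was tested directly, since both arms used D1-Cre mice of batch 1. In edgeR 0 of the 37 members passed, against 0% of all genes (10 unadjusted, against 13.6%). DESeq2 called 0 (5 unadjusted) and limma-voom 10 (16 unadjusted), against 17.9% of all genes called by limma-voom. The edgeR count at an unadjusted p was 3 without male D1 control 18068 and 4 without 18069. Shares of all genes for the unadjusted counts of these alternatives are not given here, so the counts are not read as a result about the members. Those called by limma-voom included Kcnc1, Kcnd1, Kcnd2, Kcnd3, Kcng4, Kcnh2, Kcnh3 and Kcnh6, all with the higher value in the D1 arm. The smallest edgeR p belonged to Kcng4 (1.89 ± 0.62, adjusted p = 0.240), Kcnc1 (0.90 ± 0.32), Kcnh2 (0.89 ± 0.34) and Kcnd3 (0.77 ± 0.32). The plot of the sex difference by arm shows the 12 members named from the mean.

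**Figure D5:**
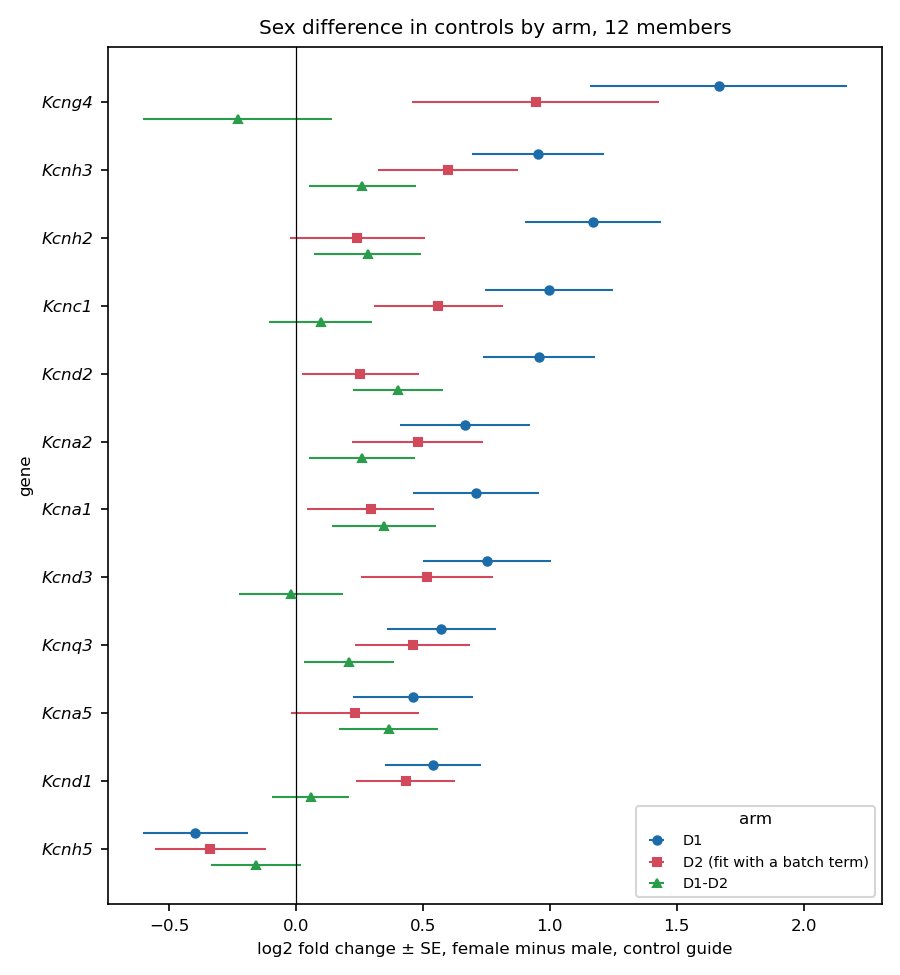
Log2 fold change ± SE, female minus male among control-guide libraries, of 12 of the Kv channel genes called in the mean of the 3 arms, by arm (circles D1, squares D2, triangles D1-D2). Kcng4 has the highest value, in the D1 arm, and Kcnh5 is below 0 in all 3 arms.

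The widest differences among members lay between the sequencing batches of the male D2 mice. In batch 2, with 9 libraries, 24 of the 37 members were higher and 2 lower (Kcna3 and Kcns2) than in batch 1, with 6. Of all genes 62.3% passed (65.5% unadjusted), 32.6% higher and 29.7% lower. Kcnq1 had 11 to 25.7 CPM (median 19.1) in batch 2 and 0.220 to 0.760 CPM (median 0.393) in batch 1, 40.8-fold (5.35 ± 0.35, edgeR adjusted p = 2.4e-23). The batches did not overlap, and no batch 1 library of any group exceeded 1.07 CPM. Within batch 2 it had 16.3 ± 4.57 CPM with the Fosb guide and 19.6 ± 3.92 CPM with the control guide (SD, n = 3 and 6). Kcnq1ot1, the imprinted antisense RNA of the locus, overlaps 2.96% of the Kcnq1 exon bases. That RNA had 16.9 ± 3.69 CPM in batch 2 and 19.9 ± 2.19 CPM in batch 1, and the part of antisense reads in the Kcnq1 difference was not tested.

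Kcnh6, an ERG gene, had 5.40 to 10.7 CPM (median 6.63) in batch 2 and 0.727 to 1.54 CPM (median 1.29) in batch 1 (2.58 ± 0.26, edgeR adjusted p = 3.56e-14). Kcnb2 and Kcnq3 were 3.91-fold and 3.70-fold higher in batch 2. Kcna3 was lower, at 5.44 to 7.73 CPM (median 5.97) in batch 2 and 9.53 to 17.6 CPM (median 13.5) in batch 1 (−1.10 ± 0.11, edgeR adjusted p = 4.2e-14). Markers of lymphocytes, cells known for Kv1.3, summed to 9.51 to 114 CPM (median 62.4) in batch 2 and 2.59 to 209.5 CPM (median 185) in batch 1. Microglia markers summed to 228 to 477 CPM (median 379) in batch 2 and 202 to 949 CPM (median 707) in batch 1. The part of either cell type in the Kcna3 difference was not tested. Summed cortical markers were 70.3 to 1214 CPM (median 359) in batch 2 and 37.8 to 407 CPM (median 58.6) in batch 1, and interneuron markers 88.8 to 215 CPM (median 154) and 39.4 to 104 CPM (median 48.5). With the cortical and medium spiny sums as covariates 27 members were called, against 60.6% of all genes, 24 of them also called without. The batch cannot be told apart from whatever else differed between these mice.

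Partner genes of Kv channels were 17 in the table, of which 15 were tested. These encode the Kv beta subunits Kcnab1 to Kcnab3, the Kv4 partners Kcnip1 to Kcnip4, Dpp6 and Dpp10, the Kcne subunits Kcne3 and Kcne4, Lgi1, Amigo1, Cntnap2 and Adam22. None of them passed between guides in any arm or between D1 and D2 arms in edgeR. Of the other potassium channel genes (inward rectifier, leak, and calcium- or sodium-activated), 32 of 37 were tested, and none passed in these comparisons either. In the mean of the 6 arms the smallest p among the partners belonged to Kcnip4, a Kv4 partner (−0.16 ± 0.063, adjusted p = 0.516), and among the other channels to Kcnk5, a leak channel gene (0.34 ± 0.17, adjusted p = 0.521), neither of which passed.

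Between female and male controls, in the mean of the 3 arms, 6 of 15 partners were higher in females and 0 lower in edgeR, against 15.3% of all genes higher and 13.2% lower, with a median of 0.24. The smallest p belonged to Kcnab2, a beta subunit of Kv1 channels (0.53 ± 0.13, adjusted p = 0.00111), Amigo1, which binds Kv2 channels (0.36 ± 0.11, adjusted p = 0.00886), and Adam22, a synaptic and axonal receptor of Lgi1 (0.32 ± 0.10, adjusted p = 0.0111). Of the 32 other potassium channel genes 6 were higher and 0 lower in females, set against the same shares of all genes, with a median of 0.21. They were led by Kcnj11, of the ATP-sensitive channel (0.64 ± 0.13), Kcnn3, an SK channel gene (0.42 ± 0.11), and Kcnj4 (0.47 ± 0.13). In batch 2 against batch 1 of the male D2 mice, 9 partners were higher and 2 lower, with Kcnip4 at 3.35 ± 0.17, and 14 other channel genes were higher and 4 lower, against 32.6% of all genes higher and 29.7% lower.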

How the data were processed

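Nucleus accumbens RNA of 87 libraries was analysed; 1 female D2 library had no column to its name, 1 column fitted no label, and neither was used. The deposited values are raw read counts by gene, not normalized, which the authors made with Trim Galore, HISAT2, SAMtools and featureCounts (Subread) on mm10, per the submitters’ processing notes, which also name DESeq2 1.27. The libraries were ribosomal RNA-depleted and made with a TruSeq Stranded Total RNA Gold kit, per the labels’ protocols. Gene annotation and strand setting: not given in the sources used here, so reads of a member and of an antisense gene could not be told apart.

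Tests used edgeR 4.0.16 (R 4.3.3; robust quasi-likelihood, TMM, filterByExpr by group) on 12 groups plus sequencing batch, over 25420 genes, in 19 comparisons. P-values were two-sided and Benjamini-Hochberg adjusted over these genes at 0.05. The code was checked on simulated counts. DESeq2 1.42.0 and limma 3.58.1 (voom with quality weights) were alternatives. Exon lengths came from GENCODE M21, and promoter sequences from RefSeq. Within each comparison all members that passed are named, and where fewer than 4 passed, those of the smallest p were added up to 4; some members count in totals but are not reported here. Further alternatives were DESeq2 size factors, no count filter, no batch term, batch 1 alone, leaving out 4 libraries dominated by 10 genes, and leaving out each library of the groups with 4. Levels were also scaled by total count alone. Marker sums as covariates, leaving out the near-alike pair, the sex comparison by arm with its difference between arms, the batch comparison and the correlations within batch (SciPy 1.17.1) were added after seeing the data. The members and lists were chosen with earlier results of these data known.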

Additional observations from a re-analysis of the deposited data

Results flagged for a closer look

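Of 42 group values of members checked, 4 held a library far from the others of its group by Dixon’s criterion, which chance alone flags in about 1 of 20 groups. Kcnh8, the low-level ELK gene, accounts for 3 of the 4. In male D1-D2 mice the lowest Fosb-guide library had 0.510 CPM, beside 0.990 CPM in the next, and the highest control 8.31 CPM, beside 1.43 CPM in the next. In female D1 controls the highest library had 4.11 CPM of Kcnh8, beside 1.77 CPM in the next. For Kcnh3, the forebrain ELK gene, the highest male D1 control (18383) had 40.9 CPM, beside 28.5 CPM in the next; the mean of the other 3 was 27.7 ± 0.976 CPM (SD).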

How the results depend on the processing

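Of the counts of members called and the level summaries, 193 values under an alternative stayed within 1.5 times the main count and 12 did not. The 193 include counts of 0 in both fits. In the male D1 guide comparison limma-voom called 2 members against 0. Without a batch term the D1 minus D2 controls gave 24 in males and 19 in the mean of both sexes, against 0, and female minus male controls gave 6 in the mean of the 3 arms, 5 in the D1 arm and 19 in the D2 arm (45.1% of all genes), against 15, 13 and 0. The marker covariates gave 9 in that mean, DESeq2 size factors 8 in its D1 arm, and leaving out single male D1 controls 6 to 13 there. For the sex difference between D1 and D1-D2 controls limma-voom called 10, against 0. Without male D1 control 18383, 6 members in place of 3 had an unadjusted p under 0.05 in the male D1 minus D2 guide effect (3.08% of all genes). Between male D1 and D2 controls the count was then 5 in place of 1, where the main fit had 2.38% of all genes.

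A log2 fold change counted as kept with the same direction and side of the threshold, also where neither fit called it. A level counted as kept if it moved by less than 1 SD over libraries. Of these values for named members, 885 were kept, 69 lost the call, 11 gained it and 11 changed sign. With the marker covariates these were Kcnh7 (−0.17) and Kcng1 (−0.00054) between guides in female D1 mice, Kcnh7 in the female D1 minus D2 effect (−0.028) and Kcnh8 between the sexes in D1-D2 controls (0.13). With limma-voom they were Kcnh8 in that comparison (0.29) and Kcng1 between D1 and D2 female controls (0.041). Without a batch term they were Kcnq3 (−0.12) and Kcna2 (−0.017) between the sexes in the mean, and Kcnd1 (−0.17) and Kcnc1 (−0.90) in the D2 arm. In batch 1 alone Kcnh4 between guides in male D2 mice was 0.22. The cause was not tested in any of these.

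No paired analysis was possible because the library numbers in the labels are unique and no number is shared between groups. Depth limits the members of low level most, since the 4 libraries dominated by 10 genes held 971 to 1790 member counts. The groups of 4 libraries, and the 2 batch 1 controls of the male D2 arm, limit what their comparisons can show.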
